A study of Mus musculus with 2 samples.

Results

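Collagen genes were followed in a map of where GATA4 bound chromatin in cultured mouse myoblasts. GATA4 is a transcription factor of the GATA family, whose zinc fingers bind DNA at GATA letters. The collagens were taken as the protein coding genes of a GRCm38.p6 RefSeq table whose symbol has the form Col, a number, the letter a and a number. The rule found 44 genes among 21887 protein coding genes on the chromosomes that held peaks. A GATA4 peak was counted at a gene when its centre lay inside the gene or within 10 kb of it. Both libraries came from satellite cell-derived myoblasts, that is, proliferating muscle precursors, of the strain STOCK Myf5tm1Pas/J, which carries a targeted Myf5 allele. The cells grew on a collagen-coated plate in Ham's F10 with 20% FBS and 20 ng/ml bFGF. There was 1 chromatin immunoprecipitation (ChIP) library made with a mixture of 3 GATA4 antibodies and 1 made with control IgG. The deposited data hold 1 list of 17539 peaks, so there is no error between replicates and no test was run. Read counts of either library were not analysed here, the depth is unknown, and no IgG background can be set beside a peak. Peaks do not measure RNA, so the cell type was not checked against its marker genes.

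Collagens are triple-helical proteins of the extracellular matrix, assembled from chains of the same gene or of different genes. Fibrillar collagens form the tensile fibres of connective tissue, and type IV collagen forms the sheet-like network of basement membranes. A basement membrane surrounds each muscle fibre and the satellite cell beneath it, and type VI collagen lies next to it. Other types sit on fibril surfaces, span the cell membrane or anchor one layer to another.

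Of the 44 collagen genes, 31 had a GATA4 peak, or 70.5% (exact Clopper-Pearson 95% interval 54.8% to 83.2%, for counting error only). Among all protein coding genes the same rule found a peak at 33.3%. Together the 31 genes held 81 different peaks, 1 of which lay at the starts of both Col4a1 and Col4a2. One peak each was found at 10 genes, and 21 genes, or 47.7%, had at least 2, against 13.4% of all protein coding genes. The peaks were unevenly shared. Col4a2 had 10, Col4a1 and Col18a1 had 8 each, and Col25a1 had 6, while the remaining genes with a peak had 4 or fewer. At least 3 peaks were found at 9 collagen genes (20.5%), beside 6.51% of all protein coding genes. A count of 8 or more was reached by 3 collagen genes (6.82%) and by 0.745% of all protein coding genes. None of these shares was matched for gene length, and collagen genes had a median length of 114 kb against 17.2 kb.

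**Figure D1:**
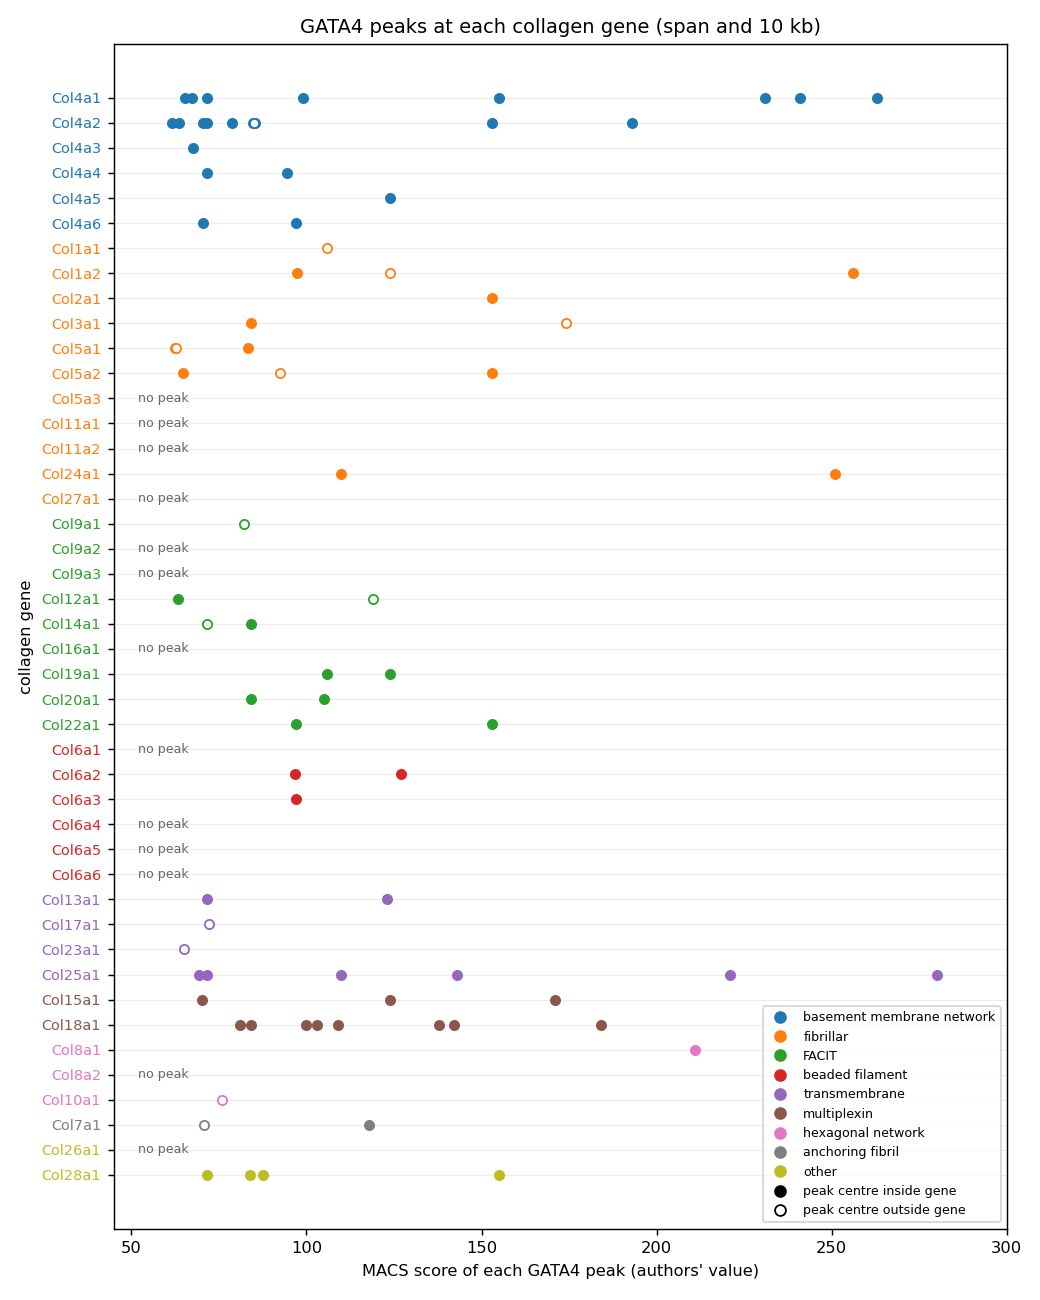
Each row is a collagen gene, grouped and coloured by structural class, and each point is a GATA4 peak placed by its MACS score on the horizontal axis, filled when its centre is inside the gene and open when it is outside. The scores run from 61.5 to 280, and 13 genes have no peak.

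Every type IV collagen gene had a peak, as did every gene of the smaller transmembrane, multiplexin and anchoring fibril classes (4, 2 and 1 genes). Each type IV gene was longer than 100 kb. Of all coding genes of 100 to 200 kb 63.7% had a peak, and of those over 200 kb 68.3%. The 6 type IV genes had 23 different peaks in all, or 20.8 per Mb of gene and 10 kb flanks (exact Poisson 95% interval 13.2 to 31.1). Over the same windows of all protein coding genes the density was 8.83 per Mb. Most of these peaks belonged to Col4a1 and Col4a2, which encode the α1 and α2 chains found in nearly all basement membranes. The pair is divergently transcribed on chromosome 8. Col4a1 lies at chr8:11198423-11312889 on the minus strand and Col4a2 at chr8:11312805-11449287 on the plus strand, so the annotated spans overlap by 85 bp at their starts. The 17 peaks of the pair made up 21.0% of all collagen peaks and gave a density of 62.8 per Mb (36.6 to 100).

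A single peak covered the whole start region of the pair. It lay at chr8:11312555-11313109, was 555 bp wide and scored 71.6, above only 16.7% of the list. That score value recurred, and 555 peaks of the list held it. The centre of the peak was 6 bp from the listed start of Col4a1 and 27 bp from that of Col4a2. The promoter windows of both genes, taken from 250 bases before to 50 after the start in RefSeq, fell inside this peak over all 300 bases. They are printed here because this was the only peak on a listed collagen promoter. Both run 5′ to 3′ along their own gene in GRCm38.p6, Col4a1 from chr8:11312777-11313076 on the minus strand and Col4a2 from chr8:11312555-11312854 on the plus strand. Capitals mark the 78 bases that the windows share, on opposite strands.
Col4a1 promoter: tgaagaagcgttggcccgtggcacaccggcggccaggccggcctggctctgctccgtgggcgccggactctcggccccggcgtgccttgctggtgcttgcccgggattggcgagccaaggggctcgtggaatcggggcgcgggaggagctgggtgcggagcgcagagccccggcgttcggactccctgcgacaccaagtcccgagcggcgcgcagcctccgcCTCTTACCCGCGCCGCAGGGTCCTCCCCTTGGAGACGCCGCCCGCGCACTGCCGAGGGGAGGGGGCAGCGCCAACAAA
Col4a2 promoter: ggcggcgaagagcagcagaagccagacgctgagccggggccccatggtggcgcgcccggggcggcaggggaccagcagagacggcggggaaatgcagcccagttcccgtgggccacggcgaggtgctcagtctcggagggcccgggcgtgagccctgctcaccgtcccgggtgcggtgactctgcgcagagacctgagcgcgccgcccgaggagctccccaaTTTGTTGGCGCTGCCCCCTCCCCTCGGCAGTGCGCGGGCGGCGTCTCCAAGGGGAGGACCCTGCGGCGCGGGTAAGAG
GATA factors are known to recognise AGATAA and AGATAG as well as TGATAA and TGATAG, and these 4 motifs of 6 letters were searched on both strands. Neither window held any of them. The windows were rich in G and C, at 74.0% and 73.7%, against a median of 52.7% over the 32851 promoters of the table.

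The highest-scoring peaks of the pair lay far from that shared start. In Col4a1, 6 peaks were grouped within 24.0 kb in the middle of the gene, between 41.2% and 62.2% of its length from the start. Their scores, ordered from the start of the gene inwards, were 67.3, 155, 263, 231, 241 and 65.3. The strongest, at chr8:11259505-11260772, was 1268 bp wide and ranked 610 in the list. Its neighbour at chr8:11258354-11259346, with the score of 231, lay immediately beside it, and the score of 241 belonged to chr8:11249194-11250078. The remaining Col4a1 peak scored 99.0 at 20.0 kb from the start. Thus 3 of the 8 Col4a1 peaks exceeded a score of 200 and the others did not. Groups of at least 3 peaks with neighbouring centres up to 10 kb apart held 15 of the 81 collagen peaks (18.5%). Among peaks at all coding genes the share was 14.1%.

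Peaks in Col4a2 were more numerous and mostly weaker. The strongest scored 193 at chr8:11381799-11383295, 69.7 kb into the gene and 1497 bp wide, and with neighbours of 85.2 and 78.8 it formed a group of 3 within 6.52 kb. A narrow peak of 406 bp, 36.1 kb from the start, scored 153. The others inside the gene scored 70.5 at 23.7 kb, 61.5 at 80.3 kb, 63.5 at 105 kb and 84.7 at 107 kb from the start. A last one, with a score of 84.9, was 8.36 kb past the end and inside the neighbouring gene Rab20. Only 2 of the 10 peaks were above the list's median score of 99.3.

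**Figure D2:**
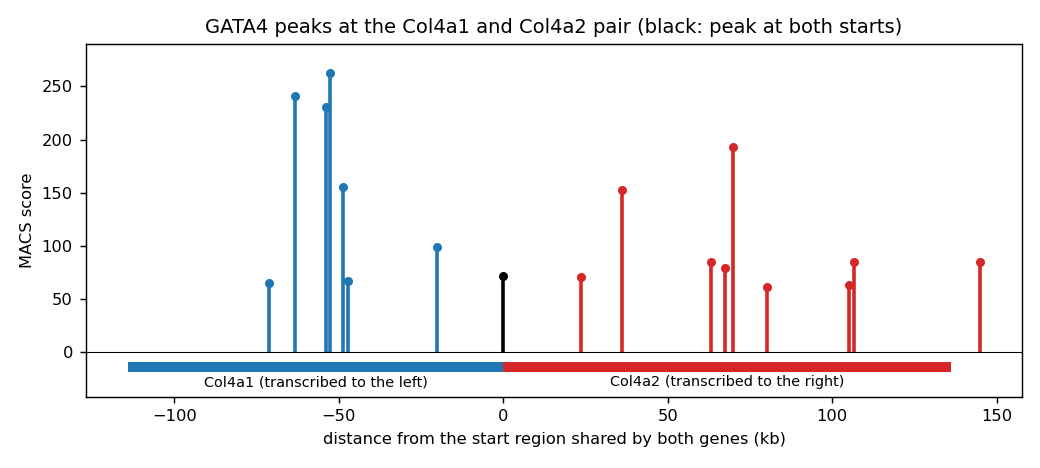
Vertical lines show the GATA4 peaks of Col4a1 (blue) and Col4a2 (red) by distance in kb from their shared start region, with height equal to the MACS score and coloured bars for the genes. The black line is the peak of score 71.6 over both starts, and the 3 tallest lines, at 231, 241 and 263, are in the middle of Col4a1.

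The other type IV genes had few peaks. Col4a3 and Col4a4, the divergent pair for chains of the kidney filter, had 1 and 2. The Col4a3 peak scored 67.7, and those of Col4a4 scored 71.6 and 94.6. Col4a5 and Col4a6, the pair on chromosome X, had 1 peak with a score of 124 and 2 with scores of 97.0 and 70.6. On that chromosome 10.5% of protein coding genes, of any length, had a peak. Per Mb the collagen windows there held 5.52 peaks (exact Poisson interval 1.14 to 16.1), beside 1.90 for coding genes. At these 4 genes no peak centre lay less than 1 kb from a gene end. Among the collagens only Col4a1 and Col4a2 had one so close (4.55%), beside 9.47% of all coding genes.

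Fibrillar collagens had a peak at 7 of 11 genes, with 15 peaks in all. Col1a2, which encodes the α2 chain of type I collagen, had 3. The one at chr6:4530396-4531915 scored 256 and was 1520 bp wide, 25.5 kb downstream of the start and 71.1% along the gene. A second inside the gene scored 97.3, and one 9.07 kb upstream of the start scored 124. Its partner chain gene Col1a1 had only a peak with a score of 106, 7.77 kb outside the gene, which was closer to Sgca and also within 10 kb of Hils1. The genes of the 2 type I chains differed in where their peaks lay.

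Col3a1 and Col5a2 are neighbours on chromosome 1 and encode fibrillar chains that occur in tissues with type I collagen. Col3a1 had a peak of score 174 at chr1:45303968-45304648, 7.23 kb upstream of its start, and one of 84.1 inside the gene, 10.1 kb from the start. Col5a2 had peaks of 92.4 outside the gene at 1.60 kb, and of 153 and 64.9 inside it, at 56.4 kb and 8.11 kb from the nearer end. Col5a1, whose product partners that of Col5a2, had a pair of low peaks on either side of its start. They scored 62.8 at 2.24 kb upstream and 62.5 at 2.25 kb downstream, and another scored 83.3 at 50.6 kb downstream. All 3 were below the list's median score.

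The other fibrillar genes split. Col24a1 had the widest collagen peak, 1779 bp, with a score of 251 at chr3:145521416-145523194, 88.6% along the gene, and a second peak of 110. Col2a1, the main cartilage collagen, had 1 peak, scored 153 and 411 bp wide, inside the gene. The cartilage collagen genes Col11a1 and Col11a2, and also Col5a3 and Col27a1, had none.

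Transmembrane collagens had a peak at all 4 genes. Col25a1, known to be needed for motor axons to enter muscle, carried the highest-scoring collagen peak. It scored 280 at chr3:130219222-130220031, 38.8 kb downstream of the start, and ranked 474 in the list. Close by were peaks of 143 at 37.6 kb, 221 at 62.0 kb and 71.6 at 70.6 kb downstream, all within the first 17.0% of a gene of 420 kb. The last 2 were farther along, with scores of 69.3 at 193 kb and 110 at 247 kb. Col13a1, a collagen of the neuromuscular junction, had scores of 123 and 71.6, both in the last part of the gene at 87.9% and 92.5% of its length. Col17a1, a collagen of skin hemidesmosomes, and Col23a1 each had a single peak outside the gene, with scores of 72.1 and 65.0, and the one of Col23a1 lay inside the neighbouring gene Phykpl.

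Both multiplexin genes, Col15a1 and Col18a1, had peaks. These collagens sit in the basement membrane zone and release fragments such as endostatin. Col18a1, on chromosome 10, had 8 peaks, all inside the gene, or 59.5 per Mb (exact Poisson interval 25.7 to 117). The strongest scored 184 at chr10:77164877-77165929, 1.13 kb downstream of the upstream listed start. The others, ordered from that end of the gene, scored 109, 84.1, 99.9, 142, 80.9, 103 and 138. They included 2 groups of 3 within 10.6 and 10.5 kb, on either side of the second listed start, from which the nearest peak was 5.44 kb. Chromosome 10 as a whole held 15.0 peaks per Mb of coding gene windows. There 48.3% of coding genes had a peak, and 4 of 5 collagen genes did. Without that chromosome 27 of 39 collagen genes had one (69.2%), beside 32.6% of coding genes. Col15a1, on chromosome 4, had scores of 124, 70.3 and 171 at 11.0, 66.4 and 70.8 kb downstream of its start.

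Beaded filament collagens, the type VI family, had peaks less evenly. Col6a2 had 2 inside the gene, with scores of 96.6 and 127, and Col6a3 had 1 with a score of 97.0, 8.95 kb downstream of its start. Col6a1, whose chain assembles with theirs in the muscle matrix, had none within 10 kb, and its nearest peak was 39.6 kb away. The related Col6a4, Col6a5 and Col6a6 stand side by side on chromosome 9 and had none either, with nearest peaks at 74.8, 209 and 343 kb.

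Fibril-associated collagens, known as FACIT, decorate the surface of fibrils, and 6 of 9 had a peak. Col22a1, a collagen of the junction of muscle and tendon, had 2 narrow peaks of 307 and 452 bp with scores of 153 and 97.0. Col12a1, which is mutated in a form of myopathy, had one of 119 at 9.37 kb outside and one of 63.4 inside the gene. Col19a1 had scores of 124 and 106, Col20a1 105 and 84.1, and Col14a1 84.1 and 71.6. Col9a1, of cartilage, had a single peak of 82.3 at 8.22 kb upstream of the gene, and Col9a2, Col9a3 and Col16a1 had none.

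The remaining collagens are of several kinds. Col8a1, a network collagen of vessels and the cornea, had 1 peak with a score of 211 at chr16:57671527-57672421, 82.8 kb downstream of its start. Col10a1, made by hypertrophic cartilage cells, had one of 76.0, 7.60 kb upstream and inside the gene Nt5dc1. Col7a1, which forms the anchoring fibrils of skin, had scores of 118 inside and 70.8 outside the gene. Both were also within 10 kb of Ucn2 and Pfkfb4, and the one outside Col7a1, at 6.94 kb, lay inside Pfkfb4. Col28a1 had 4 peaks in the middle of the gene, with scores of 87.5, 83.8, 71.6 and 155 between 86.8 and 115 kb downstream of its start. Col8a2 and Col26a1 had none.

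**Figure D3:**
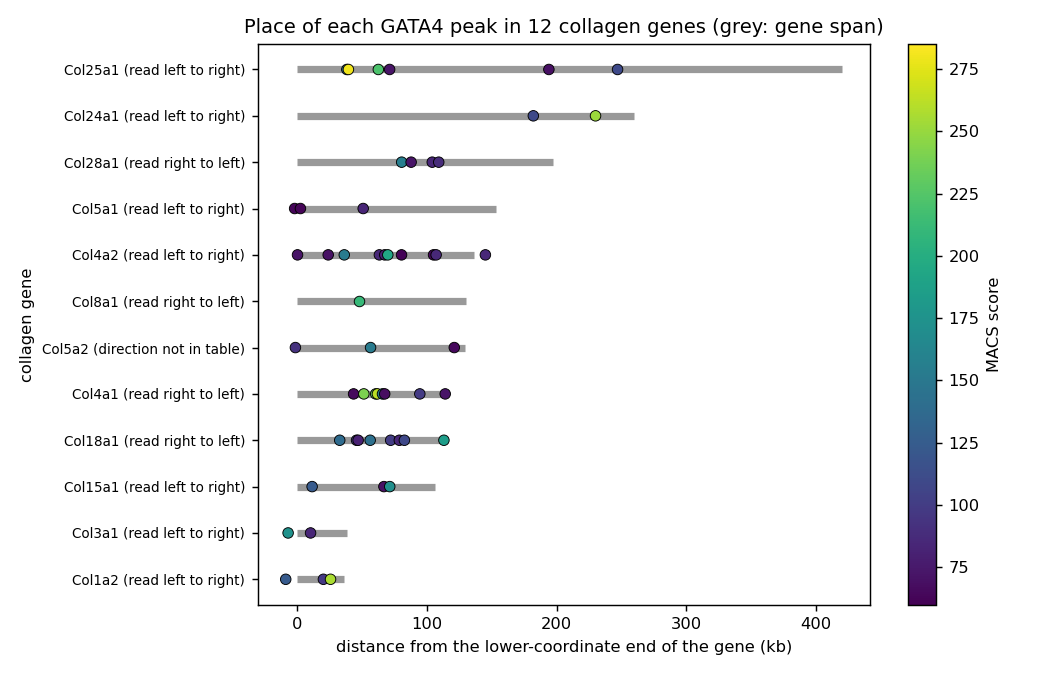
Grey bars are the spans of 12 collagen genes in kb from their lower-coordinate end, and points are GATA4 peak centres coloured by MACS score. Peaks lie mostly inside the genes, as in Col18a1 with 8 of 8, while Col1a2, Col3a1, Col5a1 and Col5a2 each have 1 just before the lower end and Col4a2 has 1 past the higher end.

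Collagen genes are long, and long genes hold more peaks. Their median length was 114 kb, against 17.2 kb for all protein coding genes. Up to 30 kb, 4 of 9 collagen genes had a peak (44.4%) beside 24.1% of all genes of that length. From 30 to 100 kb the figures were 7 of 9 (77.8%) and 44.1%. From 100 to 200 kb, 12 of 18 (66.7%) stood beside 63.7%, a share near the background, and over 200 kb all 8 had a peak beside 68.3%. Exact 95% intervals for the collagen shares were wide, 13.7% to 78.8%, 40.0% to 97.2%, 41.0% to 86.7% and 63.1% to 100%.

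Measured per Mb, which takes length into account, collagen windows held 13.0 peaks (exact Poisson interval 10.3 to 16.1) against 8.83 for all coding genes. The 3 collagen genes with the most peaks, chosen after seeing the data, were then left out. Such a choice lowers the density by construction, because other coding genes with as many peaks stayed in the comparison. Without Col4a1 and Col4a2 the density was 10.7 per Mb (8.24 to 13.7), and without Col18a1 as well it was 9.58 (7.24 to 12.4). By length class the density was 13.4, 19.5, 16.8 and 7.10 per Mb from the shortest to the longest collagen genes, beside 9.93, 10.2, 10.4 and 6.67 for all genes. Within the 100 to 200 kb class, which contains all 3 of those genes, the share of genes with a peak was near the background although the density was higher. The 30 to 100 kb class, with 19.5 per Mb beside 10.2, contains none of those 3 genes.

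**Figure D4:**
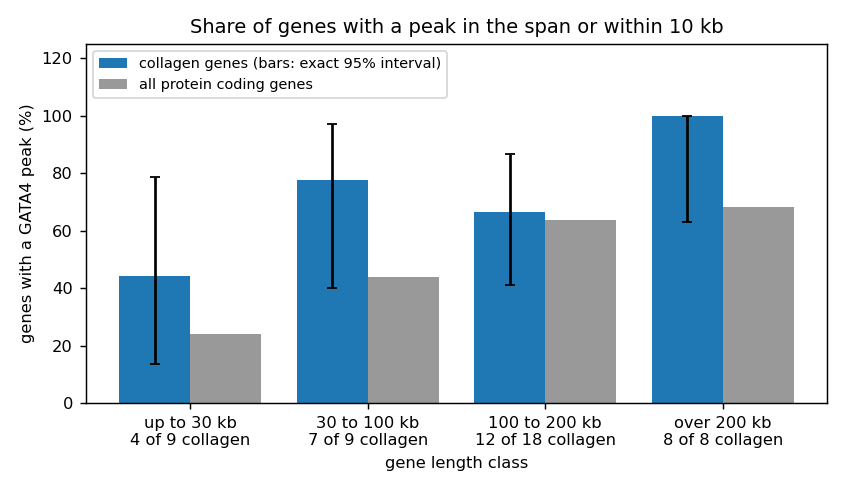
Bars give the percentage of genes with a GATA4 peak by gene length class for collagen genes (blue, with exact 95% intervals) and all protein coding genes (grey). The share rises with length among all genes, from 24.1% to 68.3%, and the 2 bars are closest at 100 to 200 kb.

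Most collagen peaks lay inside the genes, as most of the sequence counted did. A peak centre inside the gene itself was found at 26 of 44 collagen genes (59.1%), beside 21.0% of all coding genes. Within 10 kb of either gene end it was 18 (40.9%) beside 26.2%, and in the span and 50 kb it was 36 (81.8%) beside 56.8%. Of the 81 peaks, 68 (84.0%) had their centre inside a collagen gene, and 87.1% of the window length was inside. Inside the genes there were 12.5 peaks per Mb (9.70 to 15.8) and in the flanks 16.1 (8.59 to 27.6), so the intervals overlap. Of the 13 flanking peaks, 5 were nearest to another protein coding gene. Starts were listed in the promoter table for 35 of the 44 genes. A peak centre within 1 kb of a start was found at 2 of them, or 5.71%, beside 9.23% of all coding genes with a listed start. These 2 were Col4a1 and Col4a2, which share the peak. It was below the median score, so no collagen had a higher-scoring one there, beside 2.96% of coding genes. Within 5 kb Col18a1, Col5a1 and Col20a1 were added, which made 14.3% beside 14.5%. In collagen genes over 30 kb with a listed start, cut into 3 equal parts, 59 pairs of a gene and a peak were counted, so that the peak shared by Col4a1 and Col4a2 enters once for each. The first part of the gene held 22 of these pairs, the middle part 26 and the last 11, that is 37.3%, 44.1% and 18.6%. In all such coding genes the shares were 36.9%, 32.7% and 30.4%. These pairs come from few genes, with Col4a1 and Col4a2 among the largest contributors, so the shares are a description only.

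The median score did not set collagen peaks apart. It was 97.0 (binomial interval 84.1 to 109), the same as for the 11380 peaks at coding genes, and the quartiles were 71.6 and 138 beside 76.1 and 136. The value 97.0 recurred, and 659 peaks of the list held it. Without scores that at least 50 peaks share, the medians were 97.0 beside 94.6. Of the 81 collagen peaks, 37 (45.7%) were above the list's median score, beside 47.6% of peaks at coding genes. Counted by gene and not matched for length, such a peak was found at 21 of 44 collagen genes (47.7%), beside 18.8% of coding genes. A score over 200 was held by 8 collagen peaks, or 9.88%, beside 7.78% of peaks at coding genes. They lay in Col4a1, Col25a1, Col1a2, Col24a1 and Col8a1, that is 11.4% of collagen genes beside 3.79% of coding genes, again not matched for length. Some score values recurred across the list. The 13 values that at least 50 peaks shared, from 59.6 to 229, were held by 23 collagen peaks (28.4%) and by 25.6% of peaks at coding genes. Collagen peaks with such scores had a median width of 496 bp, against 824 bp for the rest. The peak over the starts of Col4a1 and Col4a2 was of this kind, as were all peaks of Col2a1, Col4a5, Col6a3, Col14a1 and Col22a1. Without these peaks 26 collagen genes (59.1%) had a peak, beside 27.7% of coding genes. The part of read depth in these scores was not tested.

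The GATA letters named above occurred in few collagen promoters. Of the 38 promoter windows listed for 35 genes, 6 (15.8%) held at least 1 of the 4 motifs on either strand, beside 29.8% of all promoters of 300 bases in the table. The 6 were those of Col3a1, Col4a6, Col11a2, Col17a1, Col27a1 and Col28a1, and none of them was overlapped by a peak. The collagen windows had a median GC content of 59.8%, above that of all promoters. Of the 2004 promoters that a peak overlapped, 23.8% held a motif, and their median GC content was 59.7%. The windows of Col3a1 and Col17a1 are shown because each gene had a peak upstream, at 7.23 and 7.70 kb, while its promoter carried the letters without a peak. Capitals mark the match, in Col3a1 on the opposite strand. They were read from chr1:45311288-45311587 on the plus strand and chr19:47691993-47692292 on the minus strand of GRCm38.p6.
Col3a1 promoter: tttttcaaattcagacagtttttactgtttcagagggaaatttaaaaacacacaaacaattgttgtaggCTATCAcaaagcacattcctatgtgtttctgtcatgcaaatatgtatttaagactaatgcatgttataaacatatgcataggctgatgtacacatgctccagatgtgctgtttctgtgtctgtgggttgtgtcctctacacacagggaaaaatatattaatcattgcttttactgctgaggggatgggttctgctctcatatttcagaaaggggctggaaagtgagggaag
Col17a1 promoter: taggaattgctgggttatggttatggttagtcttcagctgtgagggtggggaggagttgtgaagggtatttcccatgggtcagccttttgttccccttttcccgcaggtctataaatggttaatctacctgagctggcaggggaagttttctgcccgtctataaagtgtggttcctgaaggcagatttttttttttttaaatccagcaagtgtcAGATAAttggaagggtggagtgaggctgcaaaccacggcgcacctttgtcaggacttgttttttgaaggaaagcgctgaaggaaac
The match began 181 bases before the start of Col3a1 and 36 before that of Col17a1. A match is only a description of letters, and the distal peaks themselves were not searched.

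Genes that make, bind and break down collagen had peaks at 27 of 60 (exact 95% interval of the share 32.1% to 58.4%), beside the 33.3% of all coding genes. Their median length of 26.6 kb was above that of coding genes but well below that of collagens. Modifying enzymes and chaperones had a peak at 7 of 16. The highest were near P3h2, a prolyl 3-hydroxylase, with 5 peaks and a top score of 217, P4hb, a subunit of prolyl 4-hydroxylase (200, at 5.13 kb and closest to Ppp1r27), and Colgalt1, a collagen galactosyltransferase (153). Serpinh1, the collagen chaperone HSP47, had none. All 3 export genes had a peak, led by Mia3, which loads procollagen into vesicles, with 335 at 5.52 kb, a peak closest to Aida. Mia2 had 182 at 8.79 kb, closest to Fbxo33, and Tmem131 had 126 inside the gene.

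Procollagen cleavage genes had a peak at 6 of 8. Pcolce2, an enhancer of C-proteinase, had 3 with a top score of 267 at 1.69 kb inside the gene, Adamts14 had 235 at 4.54 kb outside, and Pcolce had 113 at 2.51 kb outside, closest to Fbxo24, while Bmp1, the C-proteinase itself, had none. Of the 5 cross-linking genes Loxl3 (210, at 1.86 kb outside and closest to Htra2), Loxl1 (128, inside) and Loxl2 (123, inside) had peaks, and Lox did not. Receptors had a peak at 4 of 10, with Ddr1 (134), Itgb1 (118, at 0.174 kb from the gene) and Itga11 (101) highest, and Ddr2 had 5 peaks of up to 76.3. The integrin chain genes Itga1, Itga2 and Itga10 had none. Among 13 genes of collagen breakdown and its inhibitors only Timp3 (140, inside both Timp3 and Syn3), Mmp14 (118, at 4.87 kb outside and closest to Mrpl52) and Mmp16 (73.8) had a peak. Among 5 fibril-binding proteins only Sparc did (144, at 8.71 kb outside). At 23.1% and 20.0% these groups were below the share of all coding genes, on few genes.

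**Figure D5:**
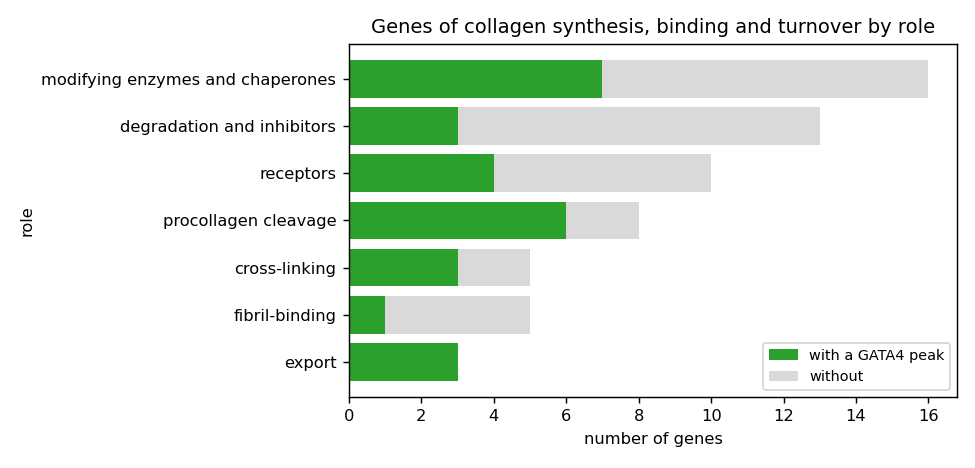
Horizontal bars count genes of collagen synthesis, binding and turnover by role, green for those with a GATA4 peak in the span or within 10 kb and grey for those without. Export (3 of 3) and procollagen cleavage (6 of 8) are mostly green, and breakdown and its inhibitors (3 of 13) are mostly grey.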

How the data were processed

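Chromatin was fixed with 1% formaldehyde, sheared and precipitated, and read as pairs of 150 bp, per the labels' protocols. The submitters' processing notes name CASAVA 1.8, Bowtie and GRCm38 (mm10). Per the file header, the authors called peaks with MACS in Galaxy and deposited 1 list with a score per peak. No source used here gives the score's scale, the calling threshold, duplicate handling, multi-mapping reads or whether IgG served as control. The score is the authors' value and was compared only within the list.

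Starts were made 1-based and each peak was placed by its centre. Genes came from a RefSeq table of GRCm38.p6, the build of the list, which gives spans but no exons, introns or untranslated regions. Starts and strands came from RefSeq promoter windows. Shares carry Clopper-Pearson and densities Poisson 95% intervals (scipy 1.17.1), for counting error only, and peaks of a list are not replicates. Counting was tested on simulated peaks planted at 200 genes, and all 200 were recovered. Most detail was given for collagens with a peak within 1 kb of an end and for the 8 with the highest score. The 6 with the most peaks were treated likewise, and ties were kept. For these genes every score is printed, but position, width or distance only for some peaks. The top score was given for up to 3 pathway genes per role, and for Ddr2. The members and lists were chosen with earlier results of these data known. Alternatives were other windows, stricter scores, any overlap, the nearest gene and runs without chromosome 10.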

Additional observations from a re-analysis of the deposited data

How the results depend on the processing

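With 1 library for the GATA4 antibody mixture and 1 for IgG, error between cultures is unknown, and which peaks would recur was not tested. In or around the gene, the share of collagen genes with a peak was above that of all coding genes in each alternative run. No alternative run matched gene length. Around the listed start the share was not above it, at 5.71% beside 8.09% within 500 bp and 14.3% beside 14.5% within 5 kb. The gene window counts were 26 of 44 with the gene span alone, 36 of 44 with 50 kb and 21 of 44 among peaks above the median score. Within 10 kb of a gene end 18 of 44 had a peak (40.9% beside 26.2%). In that last window there were 22 peaks with a median score of 83.6. They were found at 5 fibrillar, 4 FACIT, 2 type IV, 2 beaded filament and 2 transmembrane genes. The hexagonal network, multiplexin and anchoring fibril classes had 1 gene each, and the class of Col26a1 and Col28a1 had 0. Among peaks above the median score there were 37 at collagens, or 5.92 per Mb beside 4.20, with a median of 143. They lay at 6 fibrillar, 4 FACIT, 3 type IV, 2 multiplexin and 2 transmembrane genes. The beaded filament, hexagonal network and anchoring fibril classes and the class of Col26a1 and Col28a1 had 1 gene each. With the span alone, the class counts included 1 hexagonal network and 2 transmembrane genes. With 50 kb, 42 of 60 pathway genes had a peak (70.0%), beside 56.8% of coding genes. In that window Col26a1 and Col28a1 both had one. Without chromosome 10 the beaded filament, hexagonal network and multiplexin classes were each left with 1 gene that had a peak. The median width in place of the score was 756 bp beside 745. Within 5 kb of a start 5 genes had a peak, and among peaks above the median score 0 had one within 1 kb (beside 2.96% of coding genes). Chosen after seeing the data, leaving out scores that at least 50 peaks share gave 9.28 peaks per Mb beside 6.58, and leaving out Col4a1, Col4a2 and Col18a1 gave 9.58 beside 8.82. These alternatives change which peaks, bases or genes enter, and other causes were not tested. No paired analysis was possible because the GATA4 antibody mixture and the control IgG each have a single library.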

Other observations

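Proteins with a collagen-like stretch but another name were counted after seeing the data. Of 26 such genes 10 had a GATA4 peak, or 38.5%, near the 33.3% of all coding genes. C1qtnf1, a secreted relative of adiponectin, had the strongest, with a score of 229 at 0.936 kb outside the gene. Colec10, a collectin, had 199 inside the gene. Colq, the collagen tail that holds acetylcholinesterase at the neuromuscular junction, had a peak of 74.9 inside the gene. The complement genes C1qa, C1qb and C1qc and the scavenger receptor genes Marco and Msr1 had none.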
